A study of Mus musculus with 12 samples.

Results

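The transcripts described here are 10 genes by which blood vessel endothelium is commonly recognised: Pecam1, Cdh5, Kdr, Flt1, Tek, Tie1, Emcn, Vwf, Eng and Angpt2. They were taken from a table of read counts by matching Ensembl identifiers to mouse gene symbols. The matching used no measured value, but the genes were chosen with earlier results of these data known. All 10 were found among the 55401 genes of the table and all 10 passed the filter on low counts that left 20818 genes for testing.

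Endothelial cells line vessels, and in a growing tumor they are recruited from the host to supply blood. VEGF ligands act on them through the receptors encoded by Kdr and Flt1, of which Kdr carries most of the signal for growth and Flt1 binds VEGF tightly and can hold it away from Kdr. Angiopoietins act through the receptor encoded by Tek, with Angpt2 as the ligand that loosens vessels and Tie1 as a partner receptor, whereas Cdh5 and Pecam1 encode proteins of the junctions between endothelial cells.

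Tumors were grown from TC2Ras, a single mouse prostate cancer line driven by Ras, implanted under the skin of both flanks of mice at 125000 cells. The cells were given alone or with 1% adipose-derived stromal cells (ASC), isolated from male mice that carry green fluorescent protein under the ubiquitin C promoter, and the mice then drank water with 0 or 300 ppb inorganic arsenic (iAs). Every mouse had first spent a period on low-arsenic chow and purified water, and tumors were collected on day 21, so neither earlier nor later vessels were sampled. RNA with poly(A) tails was sequenced from 12 tumor samples, 3 in each of 4 groups: Control (neither ASC nor iAs), ASC, As300 (iAs at 300 ppb without ASC, labelled A300) and ASC_As300 (both, labelled ASC300). Each sample joined tissue from the left and right flanks of 1 mouse. The design asks whether vessel transcripts differed with the stromal cells, with arsenic, or with the combination of both.

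Total counts ran from 39157647 to 55168642 per tumor. The labels name adipose-derived stromal cells as the cell type, but the libraries came from whole tumors, and they held RNA of many types: summed levels in CPM (counts scaled to 1000000 per tumor) ran from 3544 to 5981 for 6 fibroblast genes, from 993 to 1602 for 6 macrophage and leukocyte genes, and from 25.5 to 361 for 6 epithelial genes. Some tumors stood apart. ASC replicate 2 held 385 CPM of 5 adipocyte genes and 5981 CPM of the fibroblast genes, the highest of the 12 tumors for both. Control replicate 1 held 171 CPM of 6 B and plasma cell genes against 2.05 to 11.1 CPM in the other tumors, and Control replicate 2 and As300 replicate 1 held 1554 and 1561 CPM of 6 skeletal muscle genes.

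To show what stands directly before the receptor genes that the following sections turn on, the 250 bases upstream of the RefSeq transcript start (GRCm38.p6) are given for Kdr, Flt1 and Tek, written 5′ to 3′ on the strand of the gene. Capitals mark matches to the ETS core, GGAAG or its reverse complement CTTCC, the letters bound by the ETS factors that many endothelial genes use.

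Kdr upstream window, chr5:75978456-75978705, minus strand: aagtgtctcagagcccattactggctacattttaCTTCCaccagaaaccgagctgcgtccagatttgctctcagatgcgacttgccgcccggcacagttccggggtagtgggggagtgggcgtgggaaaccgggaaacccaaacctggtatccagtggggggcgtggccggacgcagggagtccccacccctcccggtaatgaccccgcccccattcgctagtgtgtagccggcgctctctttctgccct
Flt1 upstream window, chr5:147726012-147726261, minus strand: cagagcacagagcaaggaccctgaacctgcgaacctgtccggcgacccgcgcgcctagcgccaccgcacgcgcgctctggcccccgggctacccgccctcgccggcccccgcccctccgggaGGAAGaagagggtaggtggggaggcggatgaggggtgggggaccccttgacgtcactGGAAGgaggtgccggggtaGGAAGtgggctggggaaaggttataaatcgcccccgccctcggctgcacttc
Tek upstream window, chr4:94739039-94739288, plus strand: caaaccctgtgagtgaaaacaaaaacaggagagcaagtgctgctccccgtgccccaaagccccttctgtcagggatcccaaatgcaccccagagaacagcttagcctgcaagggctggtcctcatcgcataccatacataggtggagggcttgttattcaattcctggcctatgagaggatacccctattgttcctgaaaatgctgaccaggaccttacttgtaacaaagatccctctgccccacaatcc

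The table of promoters held 6 of the 10 genes and lacked Pecam1, Cdh5, Vwf and Angpt2. The ETS core occurred once in the Kdr window, 3 times in the Flt1 window and at 0 places in the Tek window. It occurred 6 times for Tie1, and in 2 places each for Emcn and Eng, and 64.1% of 32851 promoter windows of the same length held at least 1 match on either strand. The Flt1 window also held 1 match to TGACGTCA, the cAMP response element, present in 1.55% of all windows, and 1 match to TATAAA, present in 12.4%; neither was found in the other 5 windows. The GC box GGGCGG, present in 32.7% of windows, was found 3 times for Flt1 and in 2 places for Kdr, and not in the windows of the other 4 genes. The hypoxia response core ACGTG, present in 16.6% of windows, was not found in any of the 6. Motifs were searched on both strands, matches are only letters in a window, and whether any is used in these tumors was not measured.

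All 10 genes were expressed in every tumor. Divided by the length of their exons, the mean levels ran from 15.5 CPM per kilobase for Cdh5 through 11.5 for Pecam1 and 11.2 for Eng, 5.41 for Tie1, 4.87 for Angpt2, 3.06 for Emcn, 2.58 for Flt1 and 2.40 for Kdr to 1.07 for Tek and 0.582 CPM per kilobase for Vwf. Over the 12 tumors the ranges of all 9 neighbouring pairs in this order overlapped, for example Cdh5 and Pecam1 (12.6 to 19.3 and 7.72 to 15.4 CPM per kilobase), Tie1 and Angpt2 (4.42 to 7.64 and 3.47 to 6.52), and Tek and Vwf (0.642 to 1.79 and 0.357 to 0.927). The overlap was slight between Eng (from 7.56) and Tie1 (to 7.64), between Angpt2 (from 3.47) and Emcn (to 3.5), and between Kdr (from 1.65) and Tek (to 1.79). In bulk tissue a lower level can mean fewer endothelial cells or less RNA of the gene per cell, and these cannot be told apart.

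Among the junction and surface genes, Cdh5 encodes VE-cadherin, the adhesion protein of endothelial junctions (GRCm38, chromosome 8, 104101625 to 104144511, plus strand). Its level was 54.0, 61.7 and 81.1 CPM in the 3 Control tumors, 74.6, 74.6 and 63.7 in ASC, 68.5, 63.4 and 55.9 in As300, and 62.1, 68.7 and 52.9 in ASC_As300. The groups overlapped throughout, and the whole range over 12 tumors was 1.53-fold.

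Pecam1 encodes an adhesion molecule of endothelial junctions that platelets and some leukocytes also carry (chromosome 11, 106654217 to 106750628, minus strand). It stood at 83.0, 70.6 and 71.2 CPM in Control, 77.8, 96.0 and 77.4 in ASC, 71.7, 65.5 and 55.1 in As300, and 61.7, 80.8 and 48.1 in ASC_As300. The ASC group and both iAs groups overlapped Control.

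Emcn encodes endomucin, a sialoglycoprotein of venous and capillary endothelium (chromosome 3, 137341067 to 137432185, plus strand). Its levels were 12.8, 16.6 and 16.0 CPM in Control, 16.7, 18.2 and 18.8 in ASC, 18.7, 19.0 and 15.1 in As300, and 15.6, 16.9 and 14.1 in ASC_As300. It had the narrowest range of the 10 genes, 1.48-fold, and the ASC tumors lay above the Control tumors only by the gap between 16.6 and 16.7 CPM.

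Eng encodes endoglin, a co-receptor for TGF-beta and BMP ligands raised on dividing endothelium (chromosome 2, 32646595 to 32682669, plus strand). It measured 41.8, 43.4 and 38.9 CPM in Control, 45.4, 71.1 and 50.2 in ASC, 51.8, 38.8 and 30.6 in As300, and 40.1, 51.9 and 39.3 in ASC_As300. All 3 ASC tumors lay above all 3 Control tumors, and ASC replicate 2 was far above the rest. On the opposite strand Eng overlaps Fpgs, which had 1641 to 3000 counts per tumor, and whether the counting used strand is not given in the sources used here.

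Vwf encodes von Willebrand factor, the clotting glycoprotein stored in endothelial granules and platelets (chromosome 6, 125546774 to 125686679, plus strand). Its levels were 10.8, 9.54 and 12.2 CPM in Control, 7.33, 14.9 and 6.48 in ASC, 12.4, 5.99 and 5.74 in As300, and 9.21, 9.26 and 8.29 in ASC_As300. In ASC and in As300 1 tumor of the 3 was near or above the Control tumors and the other two lay below them.

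Of the VEGF receptors, Kdr encodes the main signaling receptor for VEGF-A (chromosome 5, 75932827 to 75978458, minus strand). Kdr measured 21.1, 21.3 and 23.3 CPM in Control, 24.7, 35.4 and 19.3 in ASC, 19.0, 16.6 and 14.9 in As300, and 21.4, 24.1 and 18.6 in ASC_As300. All 3 As300 tumors lay below all 3 Control tumors, while the ASC tumors fell on both sides of Control.

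Flt1 encodes the receptor that binds VEGF-A with high affinity, also in a soluble form that gene counts do not separate (chromosome 5, 147561604 to 147726011, minus strand). It was 32.1, 41.5 and 47.0 CPM in Control, 32.7, 35.4 and 29.5 in ASC, 42.2, 31.4 and 32.3 in As300, and 35.8, 29.7 and 27.8 in ASC_As300. A pair of Control tumors lay above every ASC and ASC_As300 tumor, and Control replicate 1 lay among them.

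In the angiopoietin system, Tek encodes the receptor Tie2 (chromosome 4, 94739289 to 94874976, plus strand) and had the lowest level per kilobase of the receptor genes. It measured 5.04, 6.49 and 5.75 CPM in Control, 5.32, 8.44 and 3.64 in ASC, 5.93, 4.62 and 3.27 in As300, and 3.44, 5.61 and 3.03 in ASC_As300. Every group overlapped Control, and the 2.79-fold range was the widest of the 10 genes.

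Tie1 encodes the orphan partner of Tie2 (chromosome 4, 118471191 to 118490061, minus strand). Its level was 24.2, 22.9 and 24.5 CPM in Control, 25.8, 37.5 and 26.7 in ASC, 25.6, 26.8 and 25.1 in As300, and 25.1, 33.2 and 21.7 in ASC_As300. The ASC and the As300 tumors all lay above the Control tumors, in As300 by less than 1 CPM at the nearest point.

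Angpt2 encodes angiopoietin-2, which endothelial cells release at sites of sprouting (chromosome 8, 18690263 to 18741562, minus strand). It measured 18.5, 18.2 and 24.1 CPM in Control, 20.4, 20.2 and 13.8 in ASC, 22.1, 12.8 and 13.3 in As300, and 19.7, 15.4 and 16.9 in ASC_As300. No group separated from Control. On the opposite strand Angpt2 overlaps Mcph1, which had 1123 to 1644 counts per tumor beside at least 590 for Angpt2.

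**Figure D1:**
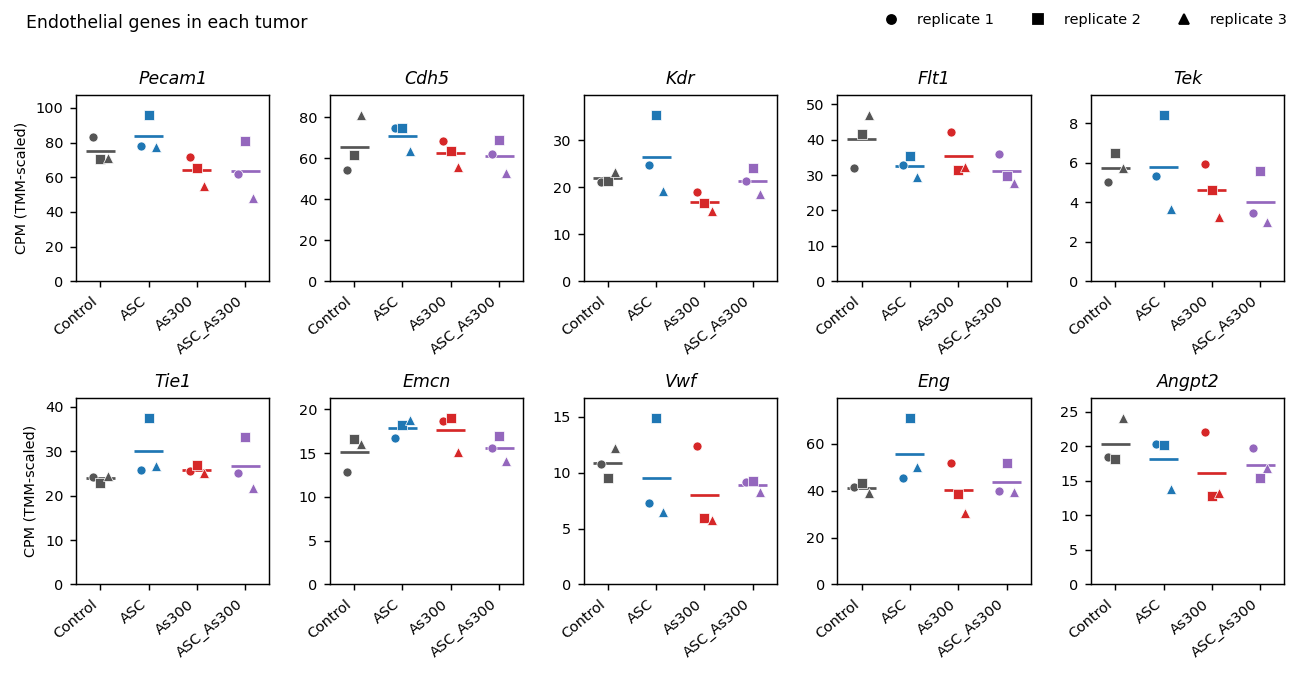
Level of each of the 10 endothelial genes in CPM (linear axis from 0), one point per tumor with the replicate number as its shape and a bar at the mean of each group of 3. ASC replicate 2, the blue square, is the highest tumor for 6 of the 10 genes, among them Eng at 71.1 CPM and Kdr at 35.4 CPM.

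The spread between tumors of a group differed from gene to gene. On the log2 scale the within-group SD was 0.16 for Emcn, 0.20 for Cdh5, 0.22 for Flt1 and for Tie1, 0.24 for Pecam1, 0.26 for Kdr, 0.28 for Eng and 0.31 for Angpt2, and it was 0.45 for Tek and 0.46 for Vwf (8 residual degrees of freedom). The median over 8421 genes at comparable levels was 0.17, so 9 of the 10 varied more between like tumors than that median gene. ASC replicate 2 was the highest tumor for 6 of the 10 genes, Control replicate 3 for 3, and the lowest tumor was ASC_As300 replicate 3 for 5 genes and As300 replicate 3 for 3. The mean log2 CPM over the 10 genes was 4.62 ± 0.10 (SD, n = 3) in Control, 4.68 ± 0.29 in ASC, 4.43 ± 0.26 in As300 and 4.46 ± 0.19 in ASC_As300. It was 5.0 in ASC replicate 2, whereas the other two ASC tumors had 4.61 and 4.44.

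In tumors with ASC and no iAs, 7 of the 10 genes had a higher fitted mean than in Control, 3 had a lower one, and none was called as changed (edgeR's quasi-likelihood test, Benjamini-Hochberg adjusted p under 0.05 and at least 1.5-fold). In this comparison 0.721% of all tested genes were called. The median log2 difference was 0.14 for the 10 genes and 0.00 over all genes. Eng showed the largest difference, log2 0.43 ± 0.20 (SE), a 1.34-fold higher level with a 95% interval of 0.999 to 1.81 and an adjusted p of 0.325 in edgeR. Eng, Tie1 (log2 0.33 ± 0.16) and Emcn (0.24 ± 0.14) were the 3 genes whose ASC tumors all lay above the Control tumors, where 9.94% of all genes did so. No gene passed an unadjusted p under 0.05 here, where 15.4% of all genes did. Leaving out ASC replicate 2 took Eng to 0.21, Tie1 to 0.14, Kdr from 0.27 to 0.01 and Vwf from -0.18 to -0.65, and that tumor was also highest in the summed adipocyte, fibroblast, macrophage and platelet markers, whose part in the values was not tested.

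In tumors with iAs and no ASC, 2 of the 10 had a higher fitted mean than Control and 8 a lower one, with a median log2 difference of -0.21 beside -0.03 over all genes. None was called with edgeR, where 1.06% of all genes were, and none passed an unadjusted p under 0.05, where 24.1% did. Vwf (log2 -0.43 ± 0.33), Kdr (-0.38 ± 0.19), Angpt2 (-0.33 ± 0.22) and Tek (-0.32 ± 0.33) had the most negative differences, and Emcn (0.22 ± 0.14) and Tie1 (0.11 ± 0.16) the positive ones. Kdr, at 0.769 of the Control level with a 95% interval of 0.578 to 1.02 (adjusted p = 0.246 in edgeR), was the 1 gene with all As300 tumors below Control, where 15.4% of all genes were, and Tie1 the 1 gene with all above, where 14.5% were. The summed level of 6 neural genes moved with this group, at 95.5 to 130 CPM in As300 against 24.3 to 56.2 in Control, and that of the 5 adipocyte genes was 10 to 32.5 against 66.5 to 172 CPM. Their part in the endothelial values was not tested. Leaving out As300 replicate 1 took Vwf to -0.88, Angpt2 to -0.63 and Tek to -0.55. Leaving out As300 replicate 3 took Vwf to -0.21 and Tek to -0.10, and leaving out Control replicate 3 took Angpt2 to -0.16. A correction for GC content took Emcn to 0.50 and Tie1 to -0.11.

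In tumors with both ASC and iAs, 3 genes had a higher and 7 a lower fitted mean than Control, with a median log2 difference of -0.16 beside -0.02 over all genes. None of the 10 was called with edgeR, where 0.807% of all genes were. Flt1 was the 1 gene with an unadjusted p under 0.05, where 15.2% of all genes were: its log2 difference was -0.37 ± 0.16, 0.774 of the Control level with a 95% interval of 0.611 to 0.98 and an adjusted p of 0.293. Tek had the most negative value, -0.52 ± 0.33, with an interval from 0.424 to 1.15 of the Control level. Vwf was the only gene whose ASC_As300 tumors all lay below Control, where 12.2% of all genes did. Without Control replicate 3 the value for Flt1 was -0.23, and without ASC_As300 replicate 2 that for Tek was -0.83. The 5 adipocyte genes summed to 1.58 to 21.6 CPM in this group against 66.5 to 172 in Control (median log2 -3.26, 5 of 5 lower). The 6 epithelial genes summed to 25.5 to 40.1 against 64.7 to 361 CPM, most of it Krt8 (24.1 to 31.1 against 62.1 to 337). Of these 6 genes, 4 had a lower and 2 a higher fitted mean. The part of either list in the endothelial values was not tested. These 3 comparisons share the Control tumors and are not independent of one another.

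With both arsenic levels joined, 6 tumors with ASC were set against 6 without, the arsenic level being held equal. The 10 genes lay on both sides of 0, with 6 higher, 4 lower and a median log2 difference of 0.04. None was called with edgeR, where 1.45% of all genes were. Kdr and Flt1 were the 2 genes with an unadjusted p under 0.05, where 10.9% of all genes were, and they went in opposite directions. Kdr was higher by log2 0.31 ± 0.13, or 1.24-fold with a 95% interval of 1.01 to 1.52 (adjusted p = 0.42 in edgeR). Flt1 was lower, at log2 -0.24 ± 0.11, or 0.845 of the level without ASC with an interval of 0.715 to 0.999 (adjusted p = 0.454). Eng had 0.27 ± 0.14 and Tie1 0.19 ± 0.12, and the other 6 genes lay between -0.09 and 0.07. Without ASC replicate 2 Kdr was at 0.18, Eng at 0.16 and Tie1 at 0.09. The summed level of the 6 epithelial genes was 25.5 to 47.1 CPM in the tumors with ASC and 64.7 to 361 without. Most of this sum was Krt8, a keratin of glandular epithelium, at 24.1 to 44.8 CPM with ASC and 62.1 to 337 without. Krt8 fell (log2 -2.03 ± 0.34, adjusted p = 0.00632 in edgeR), and its value was -1.48 without Control replicate 1. Of the 6 epithelial genes, 4 had a lower and 2 a higher fitted mean with ASC. Their part in the endothelial values was not tested. The groups overlapped for all 10 genes, while over all genes 1.89% separated the tumors with ASC from those without.

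For arsenic, 6 tumors with iAs were set against 6 without, ASC being held equal. Of the 10 genes, 9 had a lower fitted mean with iAs, Emcn was level at log2 0.01 ± 0.10, and the median was -0.19 beside -0.02 over all genes. None was called with edgeR, and neither was any of the 20818 genes (0%). At an unadjusted p under 0.05, 2 of the 10 passed, where 16% of all genes did. These were Pecam1, at log2 -0.31 ± 0.12 or 0.805 of the level without iAs (95% interval 0.674 to 0.961, adjusted p = 0.24 in edgeR), and Kdr, at -0.34 ± 0.13 or 0.788 (0.644 to 0.964, adjusted p = 0.253). Tek had the most negative value, -0.42 ± 0.24, and Cdh5, the junction gene with the highest level, had -0.14 ± 0.10 with an interval of 0.777 to 1.06. Without ASC replicate 2 Kdr was at -0.21 and Tek at -0.24. Other markers moved with iAs: the 5 adipocyte genes had a median log2 difference of -2.80, all 5 with an unadjusted p under 0.05 (0 called with edgeR, while DESeq2 called Cfd, Cidec and Plin1), and the 6 neural genes were all higher with a median of 0.73. Their part in the endothelial values was not tested. The groups overlapped for every one of the 10, where 0.447% of all genes did not.

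Whether the difference with ASC changed with arsenic was asked by the interaction of both factors. The 10 values had a median of -0.16 on the log2 scale, with 6 below 0, none was called with edgeR, and none of the 20818 genes was (0%). None of the 10 had an unadjusted p under 0.05, where 13.6% of all genes did. Emcn came nearest, at -0.42 ± 0.20 (adjusted p = 0.376 in edgeR): at 0 ppb its mean was 15.1 CPM without and 17.9 with ASC, and at 300 ppb it was 17.6 without and 15.5 with ASC. Tie1 had -0.28 ± 0.23 and Eng -0.31 ± 0.28, and Vwf, with 0.33 ± 0.47, had the widest interval, from 0.619-fold to 2.56-fold. With the GC correction the values were -0.68 for Emcn, -0.08 for Tie1 and -0.12 for Eng, and without ASC replicate 2 they were -0.09 for Tie1 and for Eng and 0.80 for Vwf.

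**Figure D2:**
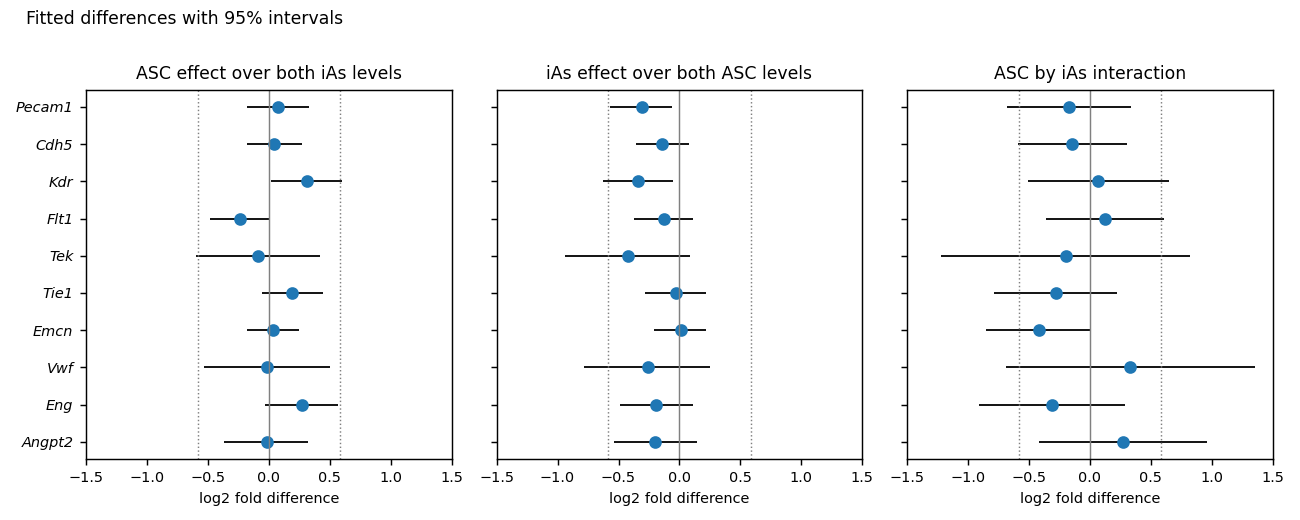
Fitted log2 differences of the 10 genes (points) with 95% intervals (lines) for ASC, for iAs and for their interaction, with dotted lines at 1.5-fold either way. Of the 10 values for iAs, 9 lie below 0 and 1 at 0.01, and intervals for Tek and Vwf are the widest in all 3 panels.

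Over the 10 genes and 6 comparisons, 60 tests in all, edgeR called 0 and 5 had an unadjusted p under 0.05, with a lowest adjusted p of 0.24. Over all genes the share called in a comparison ran from 0% to 1.45%, and the share with an unadjusted p under 0.05 from 10.9% to 24.1%. The 6 comparisons use the same 12 tumors, so the 60 tests are not independent of one another. DESeq2's Wald test also called 0. The 95% interval lay within a 2-fold change either way in 54 of the 60, excluded a 1.5-fold rise in 50 and excluded a 1.5-fold fall in 35. At 3 tumors a group many intervals thus still held a 1.5-fold fall, and the absence of a call does not show that a gene did not change.

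Kdr and Flt1 share a ligand, Angpt2 is a ligand of the Tek receptor and Tie1 its partner, and Vwf and Cdh5 mark granules and junctions. For these pairs 4 ratios of counts within a tumor were compared between groups. The ratio of Kdr to Flt1 was 0.656, 0.514 and 0.495 in Control, 0.756, 1.00 and 0.654 in ASC, 0.450, 0.530 and 0.461 in As300, and 0.599, 0.809 and 0.671 in ASC_As300. The tumors with ASC lay between 0.599 and 1.00 and those without between 0.450 and 0.656, overlapping only through Control replicate 1. The ratio was higher with ASC by log2 0.52, or 1.44-fold (exact two-sided permutation test within iAs levels, 400 arrangements, p = 0.01, adjusted over 8 tests 0.08), so it did not pass after adjustment. Leaving out 1 tumor at a time gave 0.44 to 0.59, and the adjusted p was 0.04 without ASC replicate 3 and 0.08 or more without any other single tumor. The log2 difference of this ratio with iAs was -0.20 (exact permutation p = 0.145, adjusted 0.29).

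The ratio of Tie1 to Tek was 4.80, 3.53 and 4.25 in Control, 4.83, 4.44 and 7.33 in ASC, 4.32, 5.78 and 7.66 in As300, and 7.26, 5.91 and 7.16 in ASC_As300. All ASC_As300 tumors lay above all Control tumors, and the ratio was higher by log2 0.40 with iAs (exact permutation p = 0.065, adjusted 0.26) and by 0.30 with ASC (p = 0.14, adjusted 0.29 in the same exact test). The ratio of Angpt2 to Tek ran from 2.39 to 5.71 over the 12 tumors, with differences of 0.22 for iAs (p = 0.345 in the exact permutation test) and 0.13 for ASC (p = 0.615). The ratio of Vwf to Cdh5 ran from 0.0946 to 0.200, with -0.12 for iAs (p = 0.59 in the exact permutation test) and -0.06 for ASC (p = 0.785). The smallest p that this design allows is 0.005. With adjustment over 8 tests, a ratio that stands out alone can pass only at that smallest p. Not passing therefore does not show that a ratio was unchanged.

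**Figure D3:**
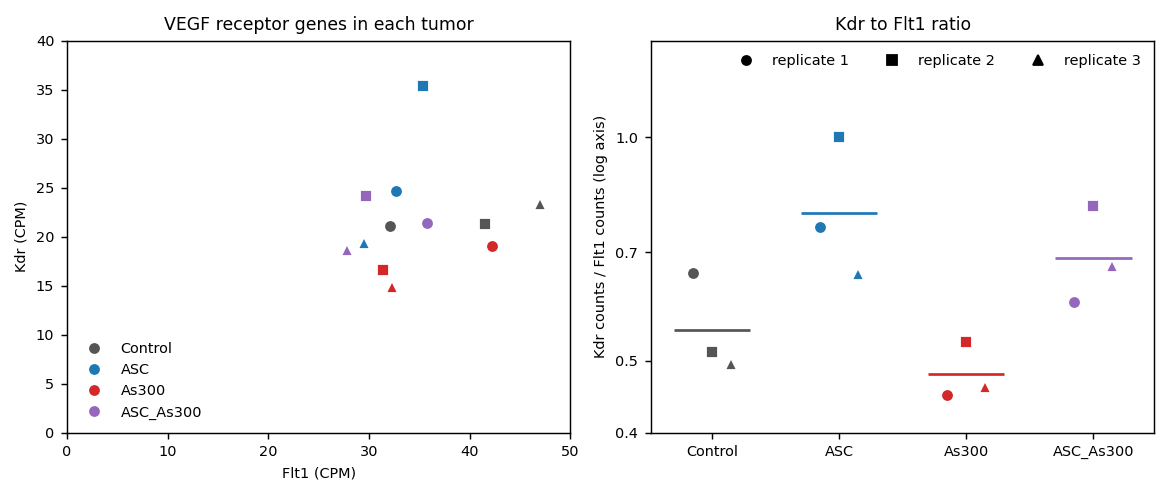
Left, Kdr against Flt1 in CPM, one point per tumor. Right, the ratio of Kdr counts to Flt1 counts in each tumor on a log axis, with a bar at the geometric mean of each group: tumors with ASC lie between 0.599 and 1.00 and those without between 0.450 and 0.656.

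The 10 genes tended to vary together from tumor to tumor. Of 45 pairs, 41 had a positive Pearson correlation of log2 CPM over the 12 tumors, with a median of 0.53, and after the group means were removed all 45 were positive with a median of 0.55. Vwf and Angpt2, both held in endothelial granules, had the highest value at 0.81, and Kdr and Eng had 0.79, as did Pecam1 and Tek. The lowest was -0.12, for Flt1 with Tie1 and for Emcn with Angpt2. Flt1 ran with Angpt2 (0.71) and Vwf (0.58) but not with Pecam1 (0.19) or Eng (0.05), whereas Kdr ran with Eng, Pecam1 (0.73) and Tek (0.72) and with Flt1 at only 0.21. Within groups the value for Kdr and Flt1 was 0.54, and for Kdr and Tek 0.92. Without ASC replicate 2 the correlation of Kdr with Tie1 went from 0.65 to 0.24 and that of Kdr with Emcn from 0.16 to -0.06. The 12 points share library depth and tissue make-up, so these values are a description.

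**Figure D4:**
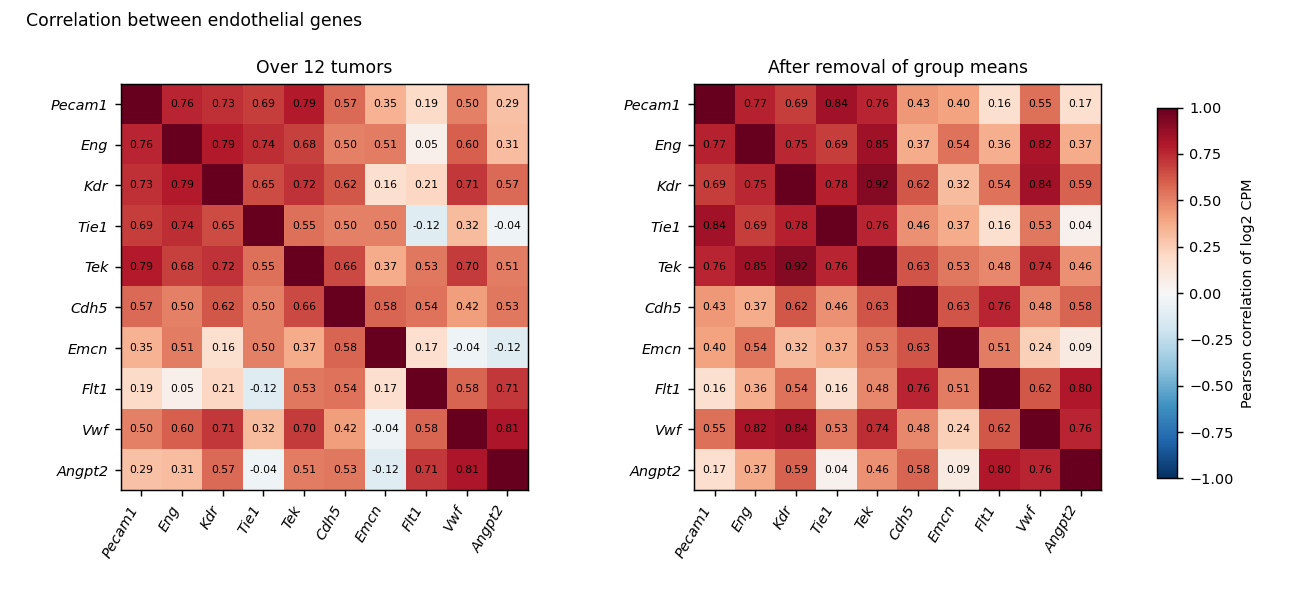
Pearson correlation of log2 CPM for each pair of the 10 genes, over the 12 tumors (left) and after the mean of each group was removed (right), red for positive and blue for negative. Pecam1, Eng, Kdr, Tie1 and Tek form a block of 0.55 to 0.79 at the upper left of the left panel.

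Among 14794 other genes with a mean of at least 1 CPM, those that followed the mean of the 10 most closely over the 12 tumors were Nhsl2 (r = 0.95), Sorbs2 (0.94), Lama4 (0.94), Gpc3 (0.92), Palmd (0.92), Edn1 (0.92), Mmrn2 (0.91), Itga1 (0.90), Adam23 (0.90) and Cd209f (0.89). Mmrn2, which encodes an endothelial matrix glycoprotein, was the only gene of these in the lists used here. Which cells expressed the others was not measured. Without ASC replicate 2 the 10 values were 0.81 to 0.92. The median correlation was 0.60 for 24 other endothelial genes, 0.67 for 11 genes of mural cells (the pericytes and smooth muscle around vessels), 0.66 for 5 erythroid genes, 0.65 for 4 platelet and megakaryocyte genes, 0.59 for 6 fibroblast genes, 0.57 for 5 adipocyte genes and 0.53 for 6 skeletal muscle genes, and -0.03 over all genes. It was lower for the remaining lists. Among vascular genes it was 0.33 for Notch and tip cells, 0.23 for the VEGF and angiopoietin families, 0.23 for lymphatic endothelium, 0.17 for TGF-beta and BMP and -0.02 for leukocyte adhesion. Macrophage and leukocyte genes had 0.26, B and plasma cell genes 0.15, epithelial genes -0.08 and neural genes -0.10.

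A further 24 endothelial genes, among them Cldn5, Erg, Sox17, Egfl7 and Plvap, were set beside the 10. With ASC alone 21 of the 24 had a higher fitted mean than Control (median log2 0.22, where all genes had 0.00). With iAs 19 of 24 had a lower one (median -0.15, where all genes had -0.02). The interaction was below 0 for 19 (median -0.34, where all genes had 0.01). Over all genes 50.5%, 53% and 49.2%, in that order, lay below 0. None of the 24 was called with edgeR or with DESeq2 in any of the 6 comparisons. In the same order 4, 5 and 5 of them passed an unadjusted p under 0.05, where 15.4%, 16% and 13.6% of all genes did. ASC replicate 2 held the highest sum of the 24 genes, 678 CPM against 431 to 573 in the other tumors, and its part in these counts was not tested. Cd34, a sialomucin of endothelial and stromal progenitors and the most abundant of them at 107 CPM on average, was higher with ASC by log2 0.36 ± 0.10 (adjusted p = 0.129 in edgeR). Every tumor with ASC (104 to 143 CPM) lay above those without (78.5 to 104, the ends differing in a later digit). Of all genes 1.89% separated these tumors in either direction, and without ASC replicate 2 the Cd34 difference was 0.29. Cd93, a C-type lectin-like receptor of endothelium, had 0.20 ± 0.09. Of the 5 that passed the unadjusted p for the interaction, Sox18, a transcription factor of vessel development, had the most negative value at -0.81 ± 0.34, followed by Egfl7, a secreted matrix protein of sprouting vessels, at -0.70 ± 0.21, and Plvap, which forms the diaphragms of fenestrated capillaries, at -0.57 ± 0.21. With the GC correction Sox18 was at -0.47 and Plvap at -0.27. The Control tumors held 43.0 to 50.4 CPM of Plvap, the ASC tumors 59.6 to 74.6, the As300 tumors 40.9 to 62.8 and the ASC_As300 tumors 46.8 to 56.9, so the ASC tumors stood above Control and the ASC_As300 tumors within the range of As300. Ptprb, the phosphatase that holds Tek in check, had the difference -0.60 ± 0.24 for iAs (adjusted p = 0.268).

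The ligands and other receptors of the VEGF and angiopoietin families were 11 genes, of which edgeR called 0 in each of the 6 comparisons. With ASC over both iAs levels 5 of the 11 passed an unadjusted p under 0.05, where 10.9% of all genes did. Vegfa, the main ligand of Kdr, measured 227, 273 and 224 CPM in Control, 203, 145 and 146 in ASC, 231, 216 and 261 in As300, and 233, 170 and 217 in ASC_As300, a log2 difference with ASC of -0.37 ± 0.11 (adjusted p = 0.132 in edgeR). Its difference with iAs was 0.15 ± 0.11. Vegfc, a ligand of lymphatic vessels, lay at 30.4 to 38.7 CPM in tumors with ASC and 43.2 to 50.6 in those without, a log2 difference of -0.37 ± 0.07 with an adjusted p of 0.0181 in edgeR that stayed short of 1.5-fold.

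Flt4, the receptor for Vegfc, was likewise lower in every tumor with ASC, at 4.88 to 6.40 against 6.48 to 8.93 CPM (log2 -0.47 ± 0.12, adjusted p = 0.0911 in edgeR). Vegfd, the related ligand, was higher in every such tumor, at 16.1 to 23.9 against 10.4 to 15.6 CPM (0.50 ± 0.12, adjusted p = 0.0652 in edgeR). Without ASC replicate 2 the difference of Vegfd was 0.43. Such full separation by ASC, as for Vegfc, Flt4 and Vegfd, was found for 1.89% of all genes in either direction. Vegfb, a ligand of Flt1 and not of Kdr, was 24.1 to 25.7 CPM in Control and 37.3 to 37.4 in As300, a log2 difference of 0.60 ± 0.15 with an adjusted p of 0.0539 in edgeR. DESeq2's Wald test called Vegfb in that comparison (adjusted p = 0.00344), whereas with the GC correction in edgeR the difference was 0.22 (adjusted p = 0.424), and it called Vegfd in ASC against Control.

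In the Notch and tip cell list, 11 genes, edgeR called 0 in each comparison and 3 passed an unadjusted p under 0.05 with ASC over both iAs levels, again beside 10.9% of all genes. Notch1, a receptor by which endothelial cells choose between tip and stalk, lay at 24.9 to 31.2 CPM with ASC and 18.4 to 24.1 without. Over all genes 1.89% separated these tumors in either direction. The log2 difference of Notch1 was 0.41 ± 0.08 (adjusted p = 0.0182 in edgeR, under 1.5-fold). Aplnr, the apelin receptor, was 22, 39.8 and 27.0 CPM in ASC and 12.8 to 19.9 in the other 9 tumors, and DESeq2 called it in ASC against Control. Its interaction was -0.77 ± 0.32 (adjusted p = 0.339 in edgeR), and -0.50 without ASC replicate 2, the tumor with 39.8 CPM.

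Of the 13 genes of the TGF-beta and BMP list 11 were tested and edgeR called 0. With ASC over both iAs levels 1 of the 11 passed an unadjusted p under 0.05, where 10.9% of all genes did. This was Acvrl1, the receptor that works with endoglin, with 13.4 to 19.7 CPM in tumors with ASC and 9.15 to 14.4 in those without, a log2 difference of 0.49 ± 0.13 (adjusted p = 0.0964 in edgeR). Without ASC replicate 2 the difference was 0.41. DESeq2 called Acvrl1 in ASC against Control.

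Of 8 genes for leukocyte adhesion 7 were tested and edgeR called 0, while DESeq2 called Icam1 with ASC over both iAs levels. The 6 genes of lymphatic endothelium gave 0 calls with either tool. For ASC over both iAs levels 1 of the 7 and 1 of the 6 had an unadjusted p under 0.05, where 10.9% of all genes did. The 12 mural cell genes gave 0 calls with edgeR and 4 with an unadjusted p under 0.05 for iAs, all lower and beside 16% of all genes. Their median log2 difference with iAs was -0.28 beside -0.02 over all genes. In ASC_As300 against Control the 12 values ran from -1.39 to 0.00 (median -0.49), none above 0. Over all genes 52.7% were lower there, with a median of -0.02, and DESeq2 called Abcc9. Among the 12, Des stood highest in As300 replicate 1 (151 CPM) and Control replicate 2 (55.5 CPM), the tumors rich in skeletal muscle genes. The part of muscle in these values was not tested.

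**Figure D5:**
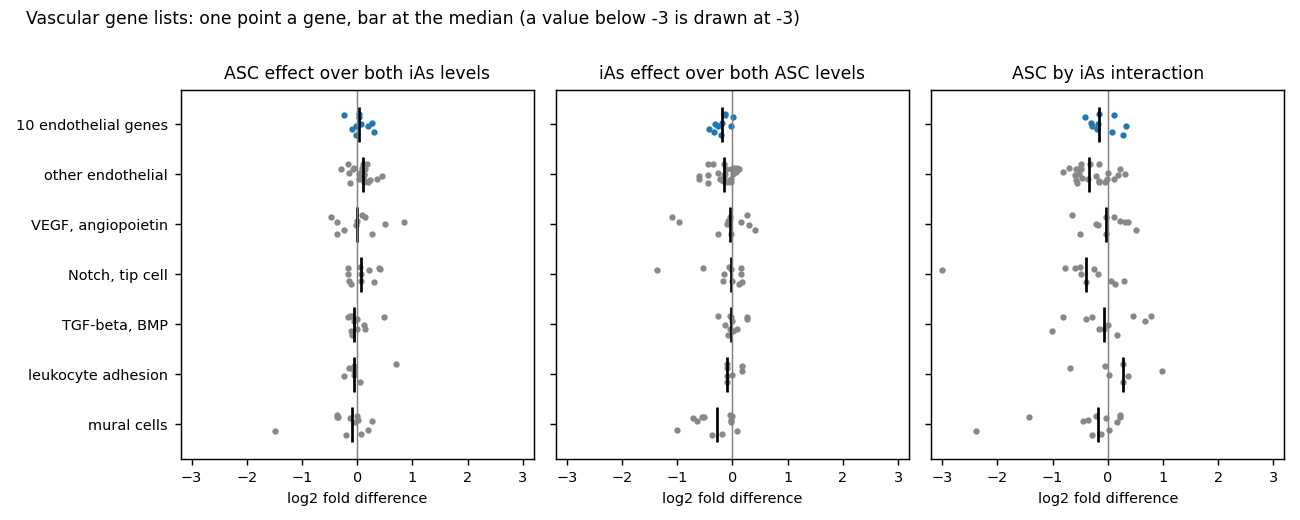
Log2 differences for ASC, for iAs and for their interaction, one point a gene, for the 10 endothelial genes (blue) and 6 other vascular lists (grey), with a bar at the median of each list. Medians of the 24 other endothelial genes are 0.10, -0.15 and -0.34 from left to right, beside 0.04, -0.19 and -0.16 for the 10.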

How the data were processed

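Poly(A) RNA of 12 TC2Ras tumors was sequenced as stranded paired-end libraries on an Illumina NovaSeq instrument. Per the labels, Cutadapt 1.1.0, HISAT2 2.0 and StringTie 1.3.4 were used, with DESeq2 and edgeR for the study's own tests. The authors deposited raw whole-number counts per Ensembl gene for all tumors in 1 table. The genome build, annotation and setting for strand behind those counts are not given in the sources used here. Genes were given symbols, positions and exon lengths by Ensembl identifier from GENCODE M21 (GRCm38), and 55141 of 55401 matched.

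Counts were scaled by TMM and fitted in edgeR 4.0.16 (R 4.3.3, limma 3.58.1) with the quasi-likelihood F test, 1 mean per group, over all 12 tumors, after filterByExpr left 20818 genes. CPM are TMM-scaled. Differences are log2, a gene was called at 1.5-fold or more with a p under 0.05 after Benjamini-Hochberg adjustment over all tested genes, and 95% intervals use the moderated degrees of freedom. Every tumor had at least 39157647 counts. Intervals rest on 1 spread per gene, shared by the 4 groups of 3 tumors, and do not measure the spread of the compared groups alone. On simulated counts for the iAs comparison with known changes (20140 genes tested), 50% of 102 genes changed by log2 1 and 78.4% of 88 changed by log2 2 were called, with 3 false calls. Within-tumor ratios were tested by exact two-sided permutation within strata, adjusted over 8 tests. Alternatives were DESeq2 1.42.0, its size factors, other count filters, counts divided by 4, a GC correction, only the tumors compared, a replicate block and leaving out each tumor. Promoter windows came from RefSeq, GRCm38.p6.

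The 10 genes and all gene lists were chosen with earlier results of these data known. Named beyond the 10 were the 10 genes most correlated with their mean and, for vascular lists, the called or most abundant genes. Vegfb, Vegfc, Vegfd, Flt4, Notch1, Acvrl1, Aplnr, Egfl7, Sox18, Plvap and Ptprb, and genes called by DESeq2 alone, were named after their values were seen.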

Additional observations from a re-analysis of the deposited data

How the results depend on the processing

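None of the 10 endothelial genes was called under any of 20 alternative settings, which gave 117 refitted comparisons in all. The lowest adjusted p was 0.0704 in edgeR (Kdr for iAs, without ASC replicate 3). Of 1170 refitted differences of the 10 genes 57 changed sign, to at most 0.36 in size (Tek without ASC replicate 2), and 0 crossed the threshold; the cause was not tested. Sign changed for Tek in ASC against Control with the replicate block (-0.07), for Tie1 in As300 (-0.11) and ASC_As300 (-0.01) and Eng in ASC_As300 (-0.08) with the GC correction, and for Eng in As300 with at least 10 counts in every tumor (0.00) and with counts divided by 4 (0.00). Leaving out 1 tumor changed a sign within these ranges. In ASC against Control they were 0.00 to 0.31 for Cdh5, -0.36 to 0.25 for Tek, -0.65 to 0.03 for Vwf and -0.24 to 0.00 for Angpt2. In As300 they were -0.17 to 0.14 for Cdh5 and -0.25 to 0.16 for Eng. In ASC_As300 they were -0.22 to 0.09 for Cdh5, -0.12 to 0.06 for Kdr, -0.02 to 0.29 for Tie1, -0.06 to 0.12 for Emcn and -0.05 to 0.15 for Eng. For ASC over both iAs levels they were -0.03 to 0.16 for Pecam1, -0.02 to 0.13 for Cdh5, -0.28 to 0.03 for Tek, -0.02 to 0.07 for Emcn, -0.25 to 0.21 for Vwf and -0.09 to 0.13 for Angpt2. For iAs they were -0.12 to 0.07 for Tie1 and -0.04 to 0.07 for Emcn, and for the interaction -0.11 to 0.34 for Kdr, -0.03 to 0.27 for Flt1 and -0.55 to 0.17 for Tek. The ratio of Vwf to Cdh5 ran from -0.23 to 0.08 with ASC and from -0.27 to 0.04 with iAs. The ratio of Kdr to Flt1 with ASC ran from 0.44 to 0.59, passing after adjustment only without ASC replicate 3 (adjusted p = 0.04 in the exact permutation test) among these and the other settings, whose adjusted p reached 0.25 with the replicate block.

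Same-numbered tumors showed little joint deviation (2 of 18 pairs had a correlation over 0.1, range -0.124 to 0.172). Their median was 0.0274 beside -0.0143 for pairs with different numbers. Such values cannot show that the numbers carry no pairing. The main fit used none, and with the replicate block 0 of the 10 genes were called. Vegfb in As300 was called by edgeR with DESeq2 size factors (log2 0.62), at least 10 counts in every tumor (0.63), counts divided by 4 (0.64), only the tumors compared (0.62), and without ASC replicate 1 or 3 (0.62 and 0.60). It was not called in the other settings, with 0.22 (adjusted p = 0.424) under the GC correction. Acvrl1 was called for ASC without As300 replicate 1 (0.59). Krt8 in ASC_As300 (-2.51) was not called with the replicate block (-2.34), from only the tumors compared (-2.51) or without any 1 of the ASC_As300 tumors.

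Counts over all genes moved more. In ASC against Control 150 genes were called, with 89 from only the tumors compared, 355 without ASC replicate 1 and 450 with DESeq2. In As300 220 were called, with 0 to 399 on leaving out 1 tumor (0 without any 1 Control tumor or without ASC_As300 replicate 1 or 3), 8 without a filter, 454 with at least 10 counts in every tumor, 460 with counts divided by 4, 0 with the GC correction and 816 with DESeq2. In ASC_As300 168 were called, with 90 to 203 on leaving out 1 tumor and 390 with DESeq2. For ASC over both levels the 301 calls became 478 with DESeq2, for iAs 0 became 59 without ASC replicate 3 and 114 with DESeq2, and for the interaction 0 became 174 with DESeq2.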
